A study of Mus musculus with 4 samples.

Results

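Carbonyl reductases and aldo-keto reductases are enzymes that reduce the carbonyl group of aldehydes, ketones and quinones. Of the 54078 genes in the deposited table, 9 were taken by their gene names: the carbonyl reductases Cbr1, Cbr3 and Cbr4, and the aldo-keto reductases Akr1a1, Akr7a5, Akr1b3, Akr1b8, Akr1c13 and Akr1e1. Their mRNA was measured in injured kidneys of male adult mice, with or without Apela in the renal tubule. Apela encodes the peptide hormone ELABELA (ELA), a ligand of the receptor APJ. ApelaKsp KO mice, referred to as KO, carry Apela flox/flox and a Cre driven by the Ksp-cadherin promoter, which is active in renal tubular epithelial cells, so other kidney cells keep the gene. WT mice are Apela flox/flox littermates without Cre, so the floxed allele is shared by both groups, and no group carried the Cre without the floxed allele. The strain is C57BL/6 x 129S4/SvJae in the sample labels and C57BL/6 in the description of the mice.

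All mice had both kidneys clamped for 30 min and were killed at day 3 after ischemia-reperfusion (I/R) injury. Uninjured kidneys were not part of the comparison. Each of the 4 libraries was made from a pool of RNA of 3 mice, 2 pools per genotype, and n = 2 below counts pools. The series design text names adipose tissue as the RNA source, whereas its title and the labels name kidney. Adiponectin mRNA (Adipoq), made by adipocytes, was at 0 in 3 pools and at 0.268 FPKM in KO replicate 2, and the summed FPKM of 12 proximal tubule genes was between 6781 and 12072, or between 1769 and 3017 without Kap, the most abundant of them. FPKM correct fragment numbers for the length of the gene and the size of the library, so they can be set side by side between pools, and between genes as far as the deposited gene lengths fit the transcripts present. The pools held between 16045724 and 16927742 reads on genes, of which 5.20% to 6.45% were mitochondrial, and Apela mRNA stood at 5.27 and 4.57 FPKM with the gene intact (WT) against 0.536 and 0.245 in KO.

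Most enzymes of both families take their hydride from NADPH, but their proteins are built differently. The carbonyl reductases belong to the short-chain dehydrogenases/reductases, which are folded around a Rossmann nucleotide-binding domain, while aldo-keto reductases form a barrel of alternating strands and helices. In the kidney these enzymes act on lipid peroxidation aldehydes, on glucose and glucuronate, on prostaglandins and on drugs such as anthracyclines, and several of them are known targets of the transcription factor NRF2, which is activated by oxidants and electrophiles.

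Cbr1 and Cbr3 are neighbors on the plus strand of chromosome 16, at chr16:93607837-93610505 and chr16:93683215-93690990 of GRCm38. The 72.7 kb between them hold 3 gene models, none of which passed the filter on low values. Both have 3 exons and a coding region of 831 bases, and the coding regions are identical at 77.4% of aligned positions. The first 150 coding bases are shown because they tell how far reads of the pair can be separated. They lie in exon 1, at chr16:93607966-93608115 for Cbr1 and chr16:93683325-93683474 for Cbr3 (GENCODE M21 transcripts, plus strand), and capitals mark the 20 bases at which the genes differ.
Cbr1: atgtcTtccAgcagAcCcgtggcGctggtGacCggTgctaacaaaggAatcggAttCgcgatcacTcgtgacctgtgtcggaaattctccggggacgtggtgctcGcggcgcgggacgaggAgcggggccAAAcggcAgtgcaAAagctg
Cbr3: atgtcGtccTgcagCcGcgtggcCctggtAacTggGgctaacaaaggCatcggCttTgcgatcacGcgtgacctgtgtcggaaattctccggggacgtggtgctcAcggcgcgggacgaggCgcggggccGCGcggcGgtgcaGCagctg
Over the whole coding regions 190 positions differed, and the longest run without a difference was 50 bases. Of the 1188 windows of 50 bases in the Cbr1 transcript, 1 also occurred in Cbr3, and no window of 100 bases was shared. Another 48 windows of 50 bases occurred in Gm5678, 1 of the 3 gene models between the pair. Gm5678 held 1 and 0 reads in WT and 4 and 0 in KO.

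Akr1c13 has a much closer copy. It lies on chromosome 13 at chr13:4191150-4205596, plus strand, and its coding region of 969 bases is 96.2% identical to that of Akr1c12, with 37 positions that differ and an identical run of 228 bases. The first 150 coding bases, from exons 1 and 2, are shown for contrast with the chromosome 16 pair. They lie at chr13:4191227-4191310 and chr13:4194034-4194099 for Akr1c13 (plus strand) and at chr13:4279273-4279356 and chr13:4276331-4276396 for Akr1c12 (minus strand), and capitals again mark the positions that differ, here 2.
Akr1c13: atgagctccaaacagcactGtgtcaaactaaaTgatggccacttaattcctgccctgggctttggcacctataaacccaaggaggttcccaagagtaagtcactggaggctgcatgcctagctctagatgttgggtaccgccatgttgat
Akr1c12: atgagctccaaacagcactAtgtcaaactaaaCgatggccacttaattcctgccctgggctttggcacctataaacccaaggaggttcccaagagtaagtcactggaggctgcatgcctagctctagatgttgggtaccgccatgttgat
Of the 1213 windows of 50 bases in the Akr1c13 transcript, 347 (28.6%) also occurred in Akr1c12, as did 134 of 1163 windows of 100 bases (11.5%). How reads with more than one match were assigned is not given in the sources used here, so the values of this pair are uncertain where the counting could split them.

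Cbr1 reduces prostaglandin E2 to prostaglandin F2 alpha, as well as quinones and anthracyclines. Cbr1 FPKM was 196 and 82.0 in WT and 379 and 362 in KO. Each KO pool was above each WT pool, and the KO pools lay close together while the WT pools did not: the higher WT pool was 2.38 times the lower, against 1.05 times for the KO pools. The means were 139 ± 80.3 in WT and 371 ± 12.0 in KO (SD, n = 2), a log2 fold change of 1.55 ± 0.44 (SE) on the log2(FPKM + 0.5) scale. This difference did not pass the test across all genes (adjusted p = 0.764, unadjusted p = 0.0188, limma with Benjamini-Hochberg adjustment over 15414 genes). Leaving out WT replicate 2 lowered the log2 fold change to 0.92, and leaving out WT replicate 1 raised it to 2.17.

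Cbr3 encodes a close relative of Cbr1 with a narrower range of substrates. Cbr3 FPKM was 17.8 and 8.74 in WT and 85.7 and 79.4 in KO. Again the KO pools were above the WT pools and close to each other, with the higher WT pool 2.04 times the lower. The means were 13.3 ± 6.41 and 82.6 ± 4.46 (SD, n = 2), and the log2 fold change of 2.67 ± 0.34 (SE) was the fourth highest of the 15414 genes tested. It did not pass the threshold either (limma, adjusted p = 0.466, unadjusted p = 0.000794), and 0.466 was the smallest adjusted p of any gene in the fit. With 1 pool left out it lay between 2.18 and 3.17. The recovered reads behind these values were 335 and 176 in WT and 1678 and 1509 in KO, in the same order of pools.

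Because both genes differed in the same pools, their ratio was also described. In WT, Cbr3 FPKM amounted to 9.11% and 10.7% of Cbr1 FPKM, and in KO to 22.6% and 21.9%. The WT pools, which were far apart in each gene, were thus close in the ratio, which stood at 9.88% ± 1.10 in WT and 22.3% ± 0.484 in KO (SD, n = 2, no test). Summed over the pair, FPKM was 213 and 90.8 in WT and 465 and 442 in KO.

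WT replicate 2 was the lowest pool for both Cbr1 and Cbr3, and markers of other cells and of tubular state also varied among the pools. The summed FPKM of 8 macrophage genes, all detected, was 150 and 324 in WT and 174 and 129 in KO. It was thus highest in WT replicate 2, and in 2 of the 8 the KO pools were both below the WT pools. The log2 fold change was below 0 for 7 of the 8 and above 0 for 1, with a median of -0.65. Of 12 proximal tubule genes, also all detected, 1 was higher and 5 were lower in KO without overlap. Their summed FPKM without Kap was 3017 and 2394 in WT and 1769 and 2755 in KO, lowest in KO replicate 1, while Kap alone was 8976 and 4387 in WT and 6038 and 9316 in KO. Of 8 genes of injured tubules, all detected, 4 were higher in KO without overlap (Lcn2, Krt8, Krt18 and Krt20) and 1 (Vcam1) was lower, with overlapping sums (7638 and 8593 in WT, 9779 and 7575 in KO) and a median log2 fold change of 0.11. Among the 4, Lcn2, the gene of the injury marker NGAL, was at 133 and 95.2 FPKM in WT and 249 and 273 in KO, and the keratin gene Krt20 at 35.6 and 36.8 against 60.0 and 61.0. Vcam1 was at 14.6 and 31.0 in WT and 10.5 and 2.59 in KO, and the injury marker Havcr1 at 210.4 and 393 in WT and 249 and 105 in KO, with overlap. Of 8 endothelial genes all had a log2 fold change above 0 (median 0.22), 4 of them higher in KO without overlap and 0 lower, and of 5 podocyte genes 2 were higher and 0 lower. In the lists of thick ascending limb and distal tubule, collecting duct, neutrophil, T cell, fibroblast and red blood cell genes, 0 tested genes were higher and 0 or 1 lower without overlap. These counts stand beside 19.7% of all tested genes higher and 18.1% lower in KO without overlap. The part of these markers in the Cbr1 and Cbr3 values was not tested. In whole kidney RNA, fewer cells of a type and less RNA per cell cannot be told apart.

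**Figure D1:**
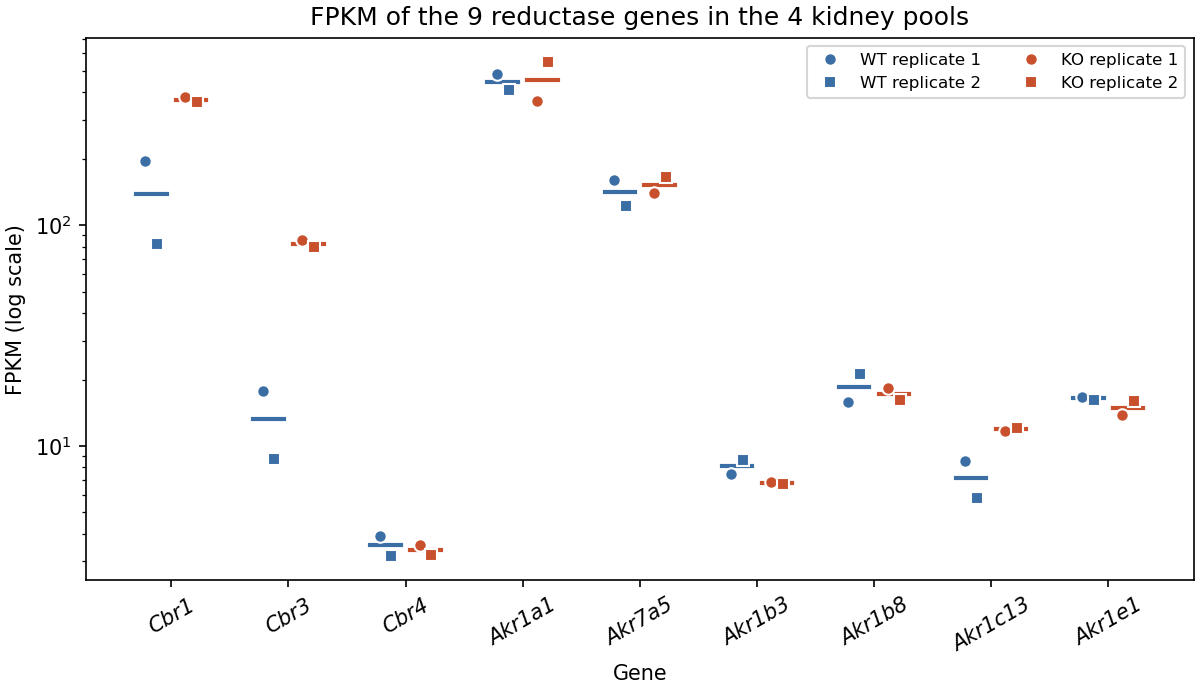
FPKM (log scale) of each of the 9 genes in the 4 pools. Circles and squares are replicates 1 and 2, blue is WT, red is KO, and bars are the means of 2 pools. In Cbr1, Cbr3 and Akr1c13 the red points lie above the blue ones, and the WT points of Cbr1 (196 and 82.0) are far apart.

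Cbr4, the third carbonyl reductase, is a mitochondrial enzyme that takes part in fatty acid synthesis there. It lies on the plus strand of chromosome 8 at chr8:61487734-61506694, and its coding region of 708 bases is 51.0% identical to that of Cbr1. By the same alignment the 6 aldo-keto reductase members, which are built differently, were 49.7% to 51.1% identical to Cbr1. Cbr4 FPKM was 3.92 and 3.19 in WT and 3.56 and 3.21 in KO. The groups overlapped, and the log2 fold change was -0.056 ± 0.15 (SE; limma, adjusted p = 0.958). It was the lowest of the 9 genes in every pool.

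The aldo-keto reductases were led by Akr1a1, the aldehyde reductase that also reduces glucuronate on the way to ascorbate (chr4:116636510-116651680, minus strand). Its FPKM was 484 and 410 in WT and 366 and 547 in KO. The KO pools lay on either side of the WT pools, and the log2 fold change was 0.0050 ± 0.27 (SE; limma, adjusted p = 0.999). Akr7a5 reduces succinic semialdehyde and the dialdehyde of aflatoxin (chr4:139310744-139318426, plus strand). Akr7a5 FPKM was 161 and 122 in WT and 139 and 165 in KO. Here too the pools overlapped, with a log2 fold change of 0.12 ± 0.20 (SE; limma, adjusted p = 0.930), which turned to -0.082 when WT replicate 2 was left out and rose to 0.32 when WT replicate 1 was.

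Akr1b3, the mouse aldose reductase, turns glucose into sorbitol (chr6:34302434-34317478, minus strand). Akr1b3 FPKM was 7.50 and 8.69 in WT and 6.90 and 6.71 in KO. The KO pools were just below the WT pools, with a log2 fold change of -0.23 ± 0.12 (SE; limma, adjusted p = 0.798). An antisense gene model, Gm14546, covers the whole of Akr1b3 and held 1 read in all 4 pools together. Akr1b3 also has near-identical copies elsewhere: 1153 of the 1338 windows of 50 bases in its transcript (86.2%) occurred in other gene models, among them processed pseudogenes, which together held between 1.09% and 2.27% as many reads as Akr1b3. Its value is therefore uncertain where reads could be split.

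Akr1b8 is an aldose reductase-like enzyme that prefers fatty aldehydes and retinal (chr6:34354119-34368463, plus strand). Akr1b8 FPKM was 15.9 and 21.3 in WT and 18.3 and 16.1 in KO. The KO pools fell within the range of the WT pools (log2 fold change -0.094 ± 0.18 SE; limma, adjusted p = 0.937). Akr1e1 reduces 1,5-anhydrofructose, a product of glycogen breakdown (chr13:4590750-4609174, minus strand). Akr1e1 FPKM was 16.7 and 16.2 in WT and 13.9 and 16.0 in KO. The pools did not overlap, KO being lower by a narrow margin for KO replicate 2 (log2 fold change -0.14 ± 0.12 SE; limma, adjusted p = 0.854).

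Akr1c13 encodes a hydroxysteroid dehydrogenase. Its FPKM was 8.55 and 5.80 in WT and 11.7 and 12.1 in KO. The KO pools were again the higher ones, and WT replicate 2 was once more the lowest pool. The means were 7.17 ± 1.95 and 11.9 ± 0.250 (SD, n = 2), and the log2 fold change of 0.72 ± 0.20 (SE) did not pass the threshold (limma, adjusted p = 0.764, unadjusted p = 0.0186). Leaving out WT replicate 2 gave 0.45 and leaving out WT replicate 1 gave 0.98. The near-identical Akr1c12 stood at 2.71 and 2.54 FPKM in WT and at 3.32 and 3.52 in KO, again without overlap (log2 fold change 0.33 ± 0.13 SE; limma, adjusted p = 0.785).

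Over the 9 genes, all of which passed the filter, 0 were called at an adjusted p under 0.05, as were 0 of the 15414 genes tested (background 0%, limma). At an unadjusted p under 0.05, 3 of the 9 were counted (Cbr1, Cbr3 and Akr1c13, all higher in KO), against 6.32% of all tested genes in either direction, 3.29% higher and 3.03% lower in KO. With 1 pool left out, its group holds 1 pool and the other group alone gives the spread, so this count was not read from those fits. The pools of the genotypes did not overlap in 5 of the 9 (55.6%), against 37.8% of all tested genes. KO was the higher in 3 of these, against 19.7% of all tested genes, and the lower in 2 (Akr1b3 and Akr1e1), against 18.1%. A log2 fold change of at least 1 was found for 2 of the 9 and for 1.12% of all tested genes, and one of -1 or less for 0 of the 9 and for 1.06% of all. The median log2 fold change was 0.0050 over the 9 and 0.0071 over all tested genes. An exact permutation test of 2 against 2 pools cannot give a two-sided p under 0.333.

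**Figure D2:**
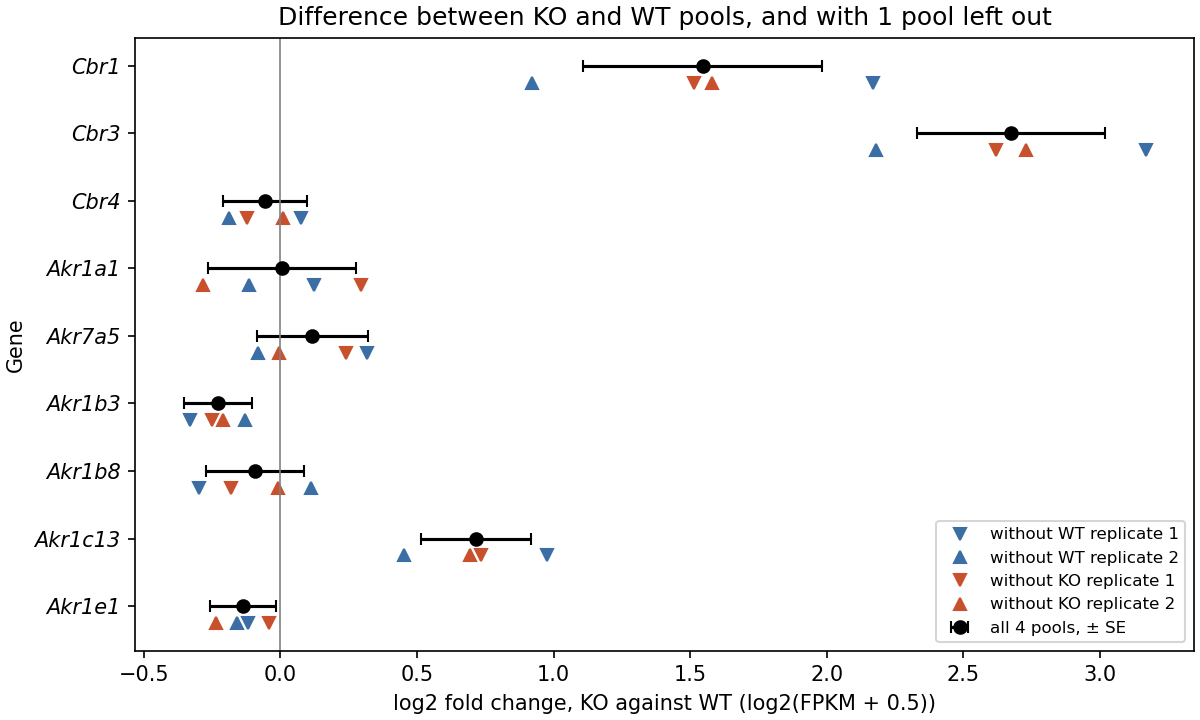
Log2 fold change of KO against WT for each gene with all 4 pools (black circles, ± SE) and with 1 pool left out (triangles). Leaving out a WT pool moves Cbr1 between 0.92 and 2.17 and Cbr3 between 2.18 and 3.17, while leaving out a KO pool moves either by less. Akr1c13 ranges from 0.45 to 0.98, and the other genes from -0.33 to 0.32.

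The spread between the WT pools was itself unusual in the genes that differed most. The absolute log2 difference between the WT pools was larger for Cbr1 than for 97.8% of the tested genes, for Cbr3 than for 95.7% and for Akr1c13 than for 83.7%. For Akr1e1 it was larger than for 12.2%, and the remaining members lay between 50.8% (Akr1b3) and 76.8% (Akr1b8).

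**Figure D3:**
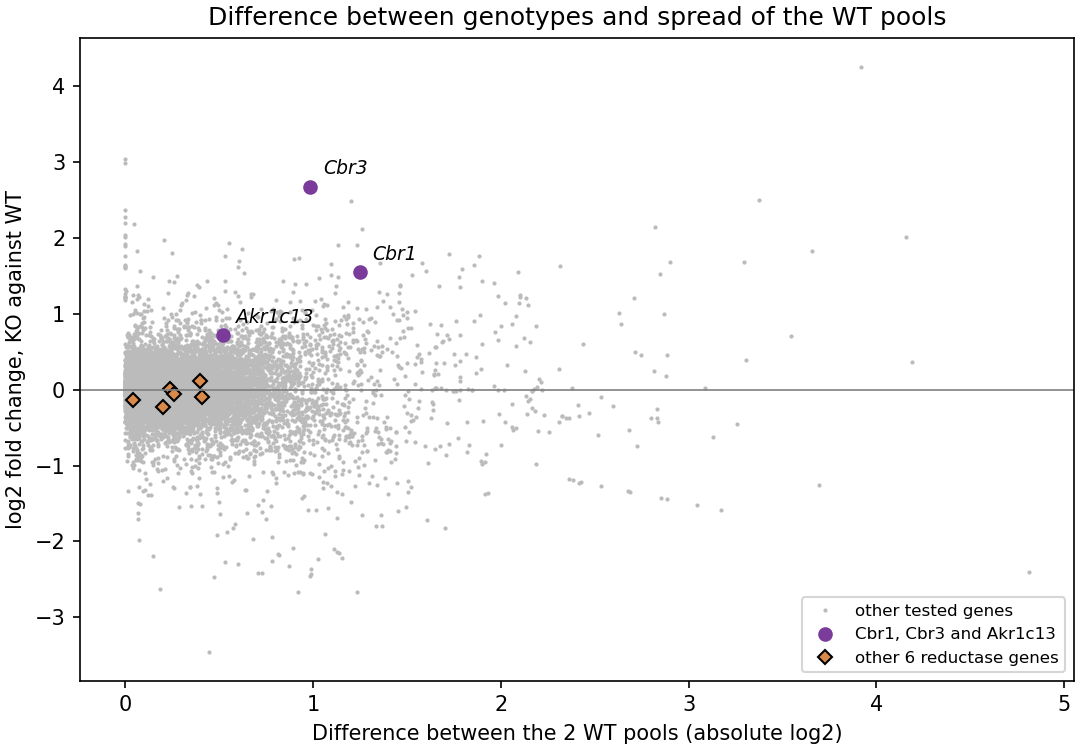
Log2 fold change of KO against WT (vertical) plotted against the absolute log2 difference between the 2 WT pools (horizontal) for all 15414 tested genes (grey) and the 9 reductase genes (circles and diamonds). Cbr3 and Cbr1 combine a large fold change with a WT spread above that of 95.7% and 97.8% of the tested genes. Akr1c13 is at 0.72, and the other 6 genes lie between -0.23 and 0.12.

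The order of levels was read within each genotype. In WT the means were, from high to low, 447 FPKM for Akr1a1, 141 for Akr7a5, 139 for Cbr1, 18.6 for Akr1b8, 16.4 for Akr1e1, 13.3 for Cbr3, 8.09 for Akr1b3, 7.17 for Akr1c13 and 3.55 for Cbr4. Among neighbors in this order the pools overlapped for Akr7a5 and Cbr1, for Akr1b8 and Akr1e1, for Akr1e1 and Cbr3, and for Akr1b3 and Akr1c13, so these did not differ beyond their spread. In KO the order was Akr1a1 (456), Cbr1 (371), Akr7a5 (152), Cbr3 (82.6), Akr1b8 (17.2), Akr1e1 (14.9), Akr1c13 (11.9), Akr1b3 (6.81) and Cbr4 (3.39), and among neighbors the pools of Akr1a1 and Cbr1 overlapped. The order also depends on the gene length used: the deposited length of Akr1b3 is 8384 bases, 6.04 times that of its longest coding transcript, and on the latter its mean over the 4 pools would be 45.0 in place of 7.45 FPKM, at rank 5 of the 9 in place of 8.

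The summed FPKM of the 9 genes was 911 and 678 in WT and 1024 and 1208 in KO, or 794 ± 165 and 1116 ± 130 (SD, n = 2, no test). On the deposited lengths the groups did not overlap, but on the lengths of the longest coding transcripts, an alternative chosen after seeing the data, the sums were 1470 and 1158 in WT and 1462 and 1824 in KO, and the groups overlapped. The share of Cbr1 in the sum on deposited lengths was 16.8% ± 6.63 in WT and 33.5% ± 4.97 in KO, that of Cbr3 1.62% ± 0.471 and 7.47% ± 1.27, and that of Akr1a1 56.8% ± 5.19 and 40.5% ± 6.76. On the transcript lengths these shares were 10.2% ± 4.40 and 22.9% ± 4.30 for Cbr1, 0.983% ± 0.323 and 5.11% ± 1.07 for Cbr3, and 66.1% ± 3.38 and 53.2% ± 6.79 for Akr1a1. Akr1a1 was then the most abundant of the 9 in all 4 pools, whereas on the deposited lengths Cbr1 led in KO replicate 1.

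**Figure D4:**
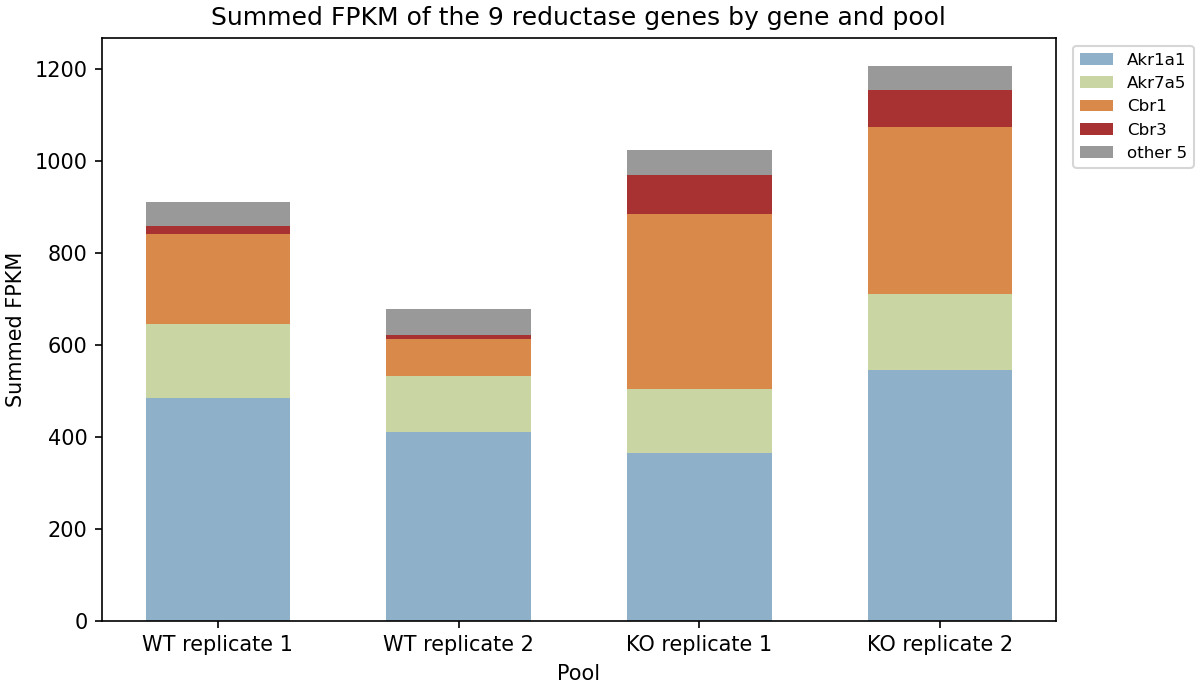
Summed FPKM (deposited gene lengths) of the 9 genes in each pool, stacked by gene; grey is the sum of the other 5 genes. The sums are 911, 678, 1024 and 1208 from left to right, and the Cbr1 and Cbr3 segments together are 213 and 90.8 in WT, and 465 and 442 in KO.

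The stretch before the RefSeq start of transcription was compared for Cbr1 and Cbr3, the members with the largest differences. In GENCODE M21 the Cbr1 gene starts further upstream, at 93605853, so the Cbr1 stretch lies within that longer gene model. The bases from 250 to 51 before the RefSeq start (GRCm38.p6, plus strand) lie at chr16:93607587-93607786 for Cbr1 and chr16:93682969-93683168 for Cbr3, overlap no annotated exon, and are shown with each CG dinucleotide in capitals.
Cbr1 promoter: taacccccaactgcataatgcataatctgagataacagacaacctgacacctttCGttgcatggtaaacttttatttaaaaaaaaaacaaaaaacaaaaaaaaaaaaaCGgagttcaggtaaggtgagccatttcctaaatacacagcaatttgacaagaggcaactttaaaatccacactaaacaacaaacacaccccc
Cbr3 promoter: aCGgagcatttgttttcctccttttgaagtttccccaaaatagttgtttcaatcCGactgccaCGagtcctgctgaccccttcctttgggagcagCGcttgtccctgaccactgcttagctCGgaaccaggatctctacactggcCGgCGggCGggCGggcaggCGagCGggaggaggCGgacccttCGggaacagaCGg
The Cbr1 stretch held 2 CG dinucleotides and was 35.0% G or C, while the Cbr3 stretch held 14 and was 59.5% G or C, beside medians of 4 and 51.5% over 32851 promoters of this length. The stretches were identical at 40.2% of aligned positions, far below the coding regions. This is also below the 49.7% to 51.1% between the coding regions of Cbr1 and the aldo-keto reductase members. The identity of unrelated promoter stretches was not computed. Full windows of 300 bases, 250 before and 50 after the start, were at hand for 8 of the 9 genes. Up to 50 bases after the start, Cbr1 held 11 CG dinucleotides and was 44.0% G or C. Cbr3 held 19 and was 60.0% G or C, beside a median of 52.7% over all promoters. In these full windows the antioxidant response element core TGACNNNGC was found on neither strand of any of the 8, against 12.4% of all promoters. TATAAA, searched on both strands, was found in 1 (Akr1b8, minus strand) against 13.6% of all promoters. These counts say only which letters lie in these windows.

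Genes of the same families lie next to several members. The chromosome 6 cluster holds 4 genes in 121 kb (Akr1b3, Akr1b8, Akr1b10 and Akr1b7), of which 0 were above and 2 below in both KO pools, beside 19.7% above and 18.1% below over all tested genes. Akr1b10, which prefers retinal and aliphatic aldehydes, was the lower of these, with 6.85 and 8.70 FPKM in WT and 5.02 and 4.08 in KO (log2 fold change -0.71 ± 0.18 SE; limma, adjusted p = 0.742). The chromosome 13 cluster holds 9 genes in 560 kb, of which 8 were tested. Akr1c13 and Akr1c12 were higher in KO without overlap, Akr1e1 lower, and the pools of the other 5 overlapped, so that 3 of 8 had no overlap beside 37.8% of all tested genes, a share at the background. The most abundant gene of that cluster, the hydroxysteroid dehydrogenase Akr1c21, was at 369 and 304 FPKM in WT and at 176 and 353 in KO, with overlapping pools.

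The genes with the pattern most like that of Cbr3 were sought among 11653 protein-coding genes (mean FPKM 1 or more), by Euclidean distance of mean-centered log2(FPKM + 0.5) over the 4 pools. Nqo1, the NAD(P)H quinone oxidoreductase and a reference target of NRF2, was the closest at a distance of 0.81, with 57.9 and 26.1 FPKM in WT and 137 and 158 in KO. It was followed by the zinc finger gene Zfp969 at 0.85, the lipid droplet gene Cidec at 1.06, the potassium channel-interacting gene Kcnip2 at 1.13 and Cbr1 at 1.14. Akr1c13 was at rank 121 and Akr7a5, the next member, at rank 2414. Zfp969 (0.283 and 0.0331 FPKM in WT, 1.73 and 2.21 in KO) and Cidec (1.37 and 0.282 in WT, 7.92 and 2.79 in KO) had WT means under 1 and reached the minimum only through KO, and the distance of such low genes depends on the pseudocount. Cidec was also on a list of 8 adipose genes, of which the other 7 were under the filter. The distances describe likeness over 4 pools that share their libraries and were not tested.

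Genes of connected pathways were summarized from lists, each given as the genes tested, those whose KO pools were both above (or both below) the WT pools, and the median log2 fold change. In every list 0 genes passed an adjusted p under 0.05 (limma). Over all tested genes 19.7% were above and 18.1% below, and 6.32% had an unadjusted p under 0.05 (3.29% higher and 3.03% lower in KO). NRF2 and its targets had 8 of 12 above and 0 below with a median of 0.57, from 0.13 for Keap1, which holds NRF2 in check, to 1.90 for Nqo1 (adjusted p = 0.677), and 4, all higher in KO, were at an unadjusted p under 0.05. The list of pentose phosphate enzymes and other producers of NADPH, the cofactor of the reductases, had 5 of 7 above and 0 below with a median of 0.44, from 0.050 for the malic enzyme Me1 to 0.64 for the transaldolase Taldo1, and 2, both higher in KO, were at an unadjusted p under 0.05. Of the enzymes on it that make NADPH themselves, G6pdx (0.44) and Pgd (0.47) were above, while the pools of Me1 and of Idh1 (0.059) overlapped. The other 3 above, Pgls, Tkt and Taldo1, are pentose phosphate enzymes that make no NADPH. These medians stand beside 0.0071 over all tested genes. The 2 lists and the carbonyl reductases partly hold known targets of the same factor, and NRF2 targets were listed with earlier results of these data known.

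Against the same shares of 19.7% above and 18.1% below over all tested genes, the other aldo-keto reductases had 2 of 11 above and 2 below with a median of -0.43 and 1, Akr1b10, at an unadjusted p under 0.05, from -0.71 for Akr1b10 to 0.73 for Kcnab3, a potassium channel subunit of the same fold. Kcnab3, counted among those above, had a mean of 0.420 FPKM in WT and 1.05 in KO. It thus reached the filter of 0.5 only through KO. The other short-chain dehydrogenases/reductases had 5 of 28 above and 2 below with a median of 0.062, from -0.29 for Pecr to 0.94 for Decr2, both enzymes of peroxisomal fatty acid metabolism. Genes of prostaglandin E2, a substrate of Cbr1, had 5 of 13 above and 4 below with a median of -0.031, and 2 higher and 1 lower were at an unadjusted p under 0.05. The lowest was Hpgd, which inactivates prostaglandins, at 6.95 and 7.94 FPKM in WT and 5.75 and 4.90 in KO (log2 fold change -0.45), and the highest was the prostaglandin reductase gene Zadh2 at 22.4 and 19.1 in WT and 26.2 and 28.0 in KO (0.38). Polyol, glucuronate and osmolyte genes, which connect to Akr1b3 and Akr1a1, had 3 of 9 above and 2 below with a median of 0.12, from -0.78 for the inositol oxygenase Miox to 0.62 for the inositol transporter Slc5a3. Enzymes that oxidize aldehydes or alcohols had 3 of 10 above and 3 below with a median of 0.034 and 1, Aldh1a1, at an unadjusted p under 0.05, from -0.44 for Adh7 to 1.39 for the retinal dehydrogenase Aldh1a1. In the short-chain and polyol lists 0 genes were at an unadjusted p under 0.05.

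**Figure D5:**
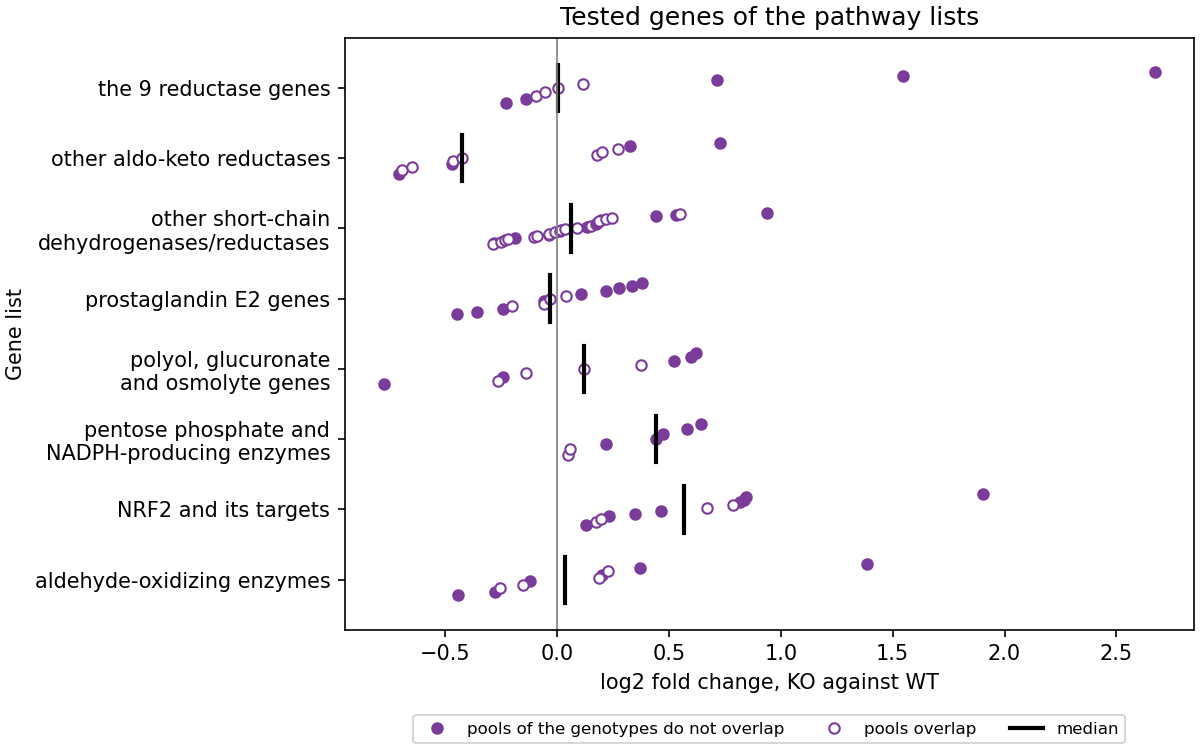
Log2 fold change of KO against WT for the tested genes of each list, 1 point per gene; filled points have no overlap between the pools of the genotypes and black bars are medians. The medians of the NRF2 list (0.57) and of the list of pentose phosphate and NADPH-producing enzymes (0.44) lie to the right of 0, while that of the 9 reductase genes is 0.0050, with Cbr3, Cbr1 and Akr1c13 apart from the rest.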

How the data were processed

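Poly-A RNA of 4 pools of kidney RNA was sequenced by a company. The authors deposited FPKM per gene and pool, with gene positions and lengths. HISAT2 2.0.5 and the builds mm10 and GRCm38.p6 stand in the submitters' processing notes, while the counting tool is not given in the sources used here, nor whether reads were counted by strand. Multiplied by gene length, 100% of the nonzero FPKM were whole multiples of a single step in their pool (within 0.01), and these recovered reads served for depth and voom weights.

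Log2(FPKM + 0.5) was compared with limma 3.58.1 in R 4.3.3 (eBayes with a mean-variance trend, no covariates, two-sided) over the 15414 genes whose mean FPKM was 0.5 or more, adjusted by Benjamini-Hochberg over them. The pools are described as biological replicates. All 9 genes were named, and from each list the genes with the lowest and highest log2 fold change, genes that overlap or neighbor a member in the Akr clusters, Apela and the 5 genes most like Cbr3. Akr1c21, G6pdx, Pgd, Pgls, Tkt, Idh1 and the markers Kap, Lcn2, Krt8, Krt18, Krt20, Vcam1 and Havcr1 were named after their values were seen. Members and lists were chosen with earlier results of these data known. Transcripts were taken from GENCODE M21, promoters from RefSeq, and sequences were aligned with Biopython 1.88. Python 3.11.15, numpy 2.4.6, pandas 2.3.3 and matplotlib 3.10.9 were used for the rest. The table positions of 8 of the 9 genes equal those of GENCODE M21; for Cbr1 the latter starts further upstream, at 93605853. The alternatives tried were a pseudocount of 0.1 or 1, all genes without the filter, a filter at a mean FPKM of 1, quantile normalization, a variance prior without trend, a replicate block, voom weights, calls by unadjusted p, and leaving out each pool in turn.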

Additional observations from a re-analysis of the deposited data

How the results depend on the processing

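Of 108 log2 fold changes computed for the 9 genes under 12 alternatives each, 99 kept their sign and 9 reversed. The changes of filter, the prior without trend and the replicate block leave each log2 fold change as it was. Signs could not reverse under those settings, so the 99 include values fixed in advance. Cbr1, Cbr3, Akr1c13, Akr1b3 and Akr1e1 kept theirs under every alternative run. These are the 5 members whose pools did not overlap between the genotypes. Leaving out 1 pool could therefore not reverse their sign. With quantile normalization Akr1a1 moved to -0.057 and Akr7a5 to -0.030. With 1 pool left out, the log2 fold change ranged from -0.28 to 0.29 for Akr1a1, from -0.082 to 0.32 for Akr7a5, from -0.30 to 0.11 for Akr1b8 and from -0.19 to 0.075 for Cbr4, and the cause of these reversals was not tested. The smallest adjusted p of any member under any alternative with all pools was 0.421 (limma, Cbr3 with quantile normalization). Under these alternatives 0 members and 0 genes were called at an adjusted p under 0.05. With an unadjusted p under 0.05 as the rule, 974 genes and 3 members were counted. The number of genes ran from 845 to 1538 over the alternatives with all pools. Fits with 1 pool left out were read for log2 fold changes only, since the other group alone then gives the spread. With all pools, members with both KO pools above the WT pools numbered 3, beside 19.7% of all tested genes. Members below numbered 2, beside 18.1%. With 3 pools fewer values have to be in order, so these counts were not read from fits with 1 pool left out. Pools with the same number did not deviate together (r = -0.0017 across the 15414 genes, which are not independent replicates). This value gave no sign of pairing by number, but it cannot show how the pools were prepared. With the replicate block, 0 genes and 0 members were called, and 932 genes had an unadjusted p under 0.05. On the length of the longest coding transcript, an alternative chosen after seeing the data, mean FPKM over the 4 pools was 874 for Akr1a1, 45.0 for Akr1b3, 204 for Akr7a5 and 5.04 for Cbr4. There were 2 pools per group and 143 to 24407 reads per member and pool, and the effect of depth on the calls was not tested.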
